A study of Mus musculus with 23 samples.

Results

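The question addressed here is how far the difference in gene expression between mice with a poly(ethylene glycol) hydrogel for 28 days and mice without one depended on the cell type, in sorted macrophages and monocytes. The measure is an interaction. For each gene it is the difference between implanted and control macrophages on the log2 scale, minus the same difference in monocytes. It used 11 of the 23 libraries of the series, chosen by their labels: control macrophages (n = 2), macrophages at day 28 (n = 3), control monocytes (n = 3) and monocytes at day 28 (n = 3). All came from wildtype C57BL/6J mice. The implanted groups carried the hydrogel under the skin for 28 days, and the controls had no implant and a treatment labelled none. The tissue of every group is labelled subcutaneous, and implanted tissue and hydrogel were taken out and digested with Liberase TM. How tissue without an implant was taken is not stated, nor whether control monocytes came from the skin or from another source, which bears on every difference from them. Both were Cx3cr1-positive cells, the macrophages with low and the monocytes with high Ly6C. The cells are thus defined by 2 surface markers, and tissue and gel were digested together, so that cells inside the capsule and cells of the skin around it share a library. No age or sex of the mice is given in the labels used.

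Ly6C-high monocytes leave the blood for inflamed tissue, where they can lose Ly6C and turn into macrophages. Resident macrophages of the skin take up debris, make the complement protein C1q and carry scavenger receptors. Around an implant such as a poly(ethylene glycol) gel, a synthetic, water-swollen polymer network, macrophages gather, can fuse into giant cells and are part of the foreign body response that ends in a fibrous capsule.

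Library totals ran from 10898529 to 32994092 counts, and 16260 genes passed a filter on low counts. Levels of single genes are CPM, counts relative to the library total, scaled by TMM factors. Values are listed by replicate letter (A, B, C, or A and B in control macrophages). Summed levels of marker lists are CPM without TMM factors. These factors were 1.24 to 1.41 in controls and 0.916 to 1.04 at day 28, so that scaling would lower the control sums relative to day 28. Fold changes are log2 values ± standard error from edgeR, and a gene was called at an adjusted p under 0.05 (Benjamini-Hochberg) in edgeR's quasi-likelihood test. The sort gene Ly6c2 stood at 1229, 2407 and 1291 CPM in control monocytes and 2171, 836 and 991 in monocytes at day 28, against 236 and 120 in control macrophages and 5.49, 15 and 62.4 in macrophages at day 28. The highest macrophage value was thus below the lowest monocyte value. Adgre1, which encodes the macrophage antigen F4/80, was higher in control macrophages (945 and 740 CPM) than in control monocytes (288, 223 and 274). It was 758, 746 and 555 CPM in macrophages at day 28 against 295, 532 and 341 in monocytes at day 28, a difference that was not called (log2 0.82 ± 0.24, adjusted p = 0.078, and 0.96 with adjusted p = 0.031 without macrophage replicate C). Macrophage replicate C at day 28 stood apart. Its Spearman correlation over the 16260 genes was 0.942, 0.937 and 0.926 with the 3 day 28 monocyte libraries, against 0.916 and 0.930 with the other 2 libraries of its own group. Results that move with this library are given with and without it. The mitochondrially encoded genes took 2.14% to 2.71% of counts in macrophages at day 28 and 0.511% to 1.25% in the other 3 groups, and the part of this in the results was not tested.

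The interaction was called for 939 of 16260 genes (5.77%). It was positive, with the macrophage difference above that of monocytes, for 362 genes (2.23%) and negative for 577 (3.55%). Within macrophages, day 28 libraries were higher than controls for 1069 genes (6.57%) and lower for 648 (3.99%). Within monocytes 1905 genes (11.7%) were higher and 1060 (6.52%) lower. Without control macrophage replicate B, 1 of only 2 in its group, the interaction was called for 492 genes. In that fit macrophages at day 28 differed from controls for 689 genes in place of 1717, and without replicate A for 809. In monocytes the count of 2965 was 1962 without control replicate A and 1932 without control replicate C.

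The called genes fell into 5 kinds by the effect within each cell type. A monocyte effect with no called macrophage effect was found for 483 genes (2.97% of those tested), of which 340 rose and 143 fell in monocytes. A macrophage effect with no called monocyte effect was found for 226 (1.39%), of which 140 rose and 86 fell in macrophages. In 89 genes (0.547%) both effects were called with opposite signs. Macrophages fell and monocytes rose in 56 of them, and the reverse held in 33. In 75 genes (0.461%) both effects had the same sign and differed in size. The other 66 (0.406%) had a called interaction and no called effect in either cell type. A further 687 genes (4.23%) were called in both cell types with the same sign and no called interaction, 528 of them higher and 159 lower at day 28. Without control macrophage replicate B the macrophage-only, monocyte-only, opposite, same-sign and neither-effect kinds held 83, 313, 36, 39 and 21 genes, and 354 genes were called in both with no called interaction. Without control macrophage replicate A the macrophage-only, opposite and same-sign kinds held 123, 48 and 40, and 360 were called in both. The neither-effect kind held 41, 33, 34 and 39 genes without macrophage replicate A or B at day 28, control monocyte replicate C or monocyte replicate A at day 28.

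**Figure D1:**
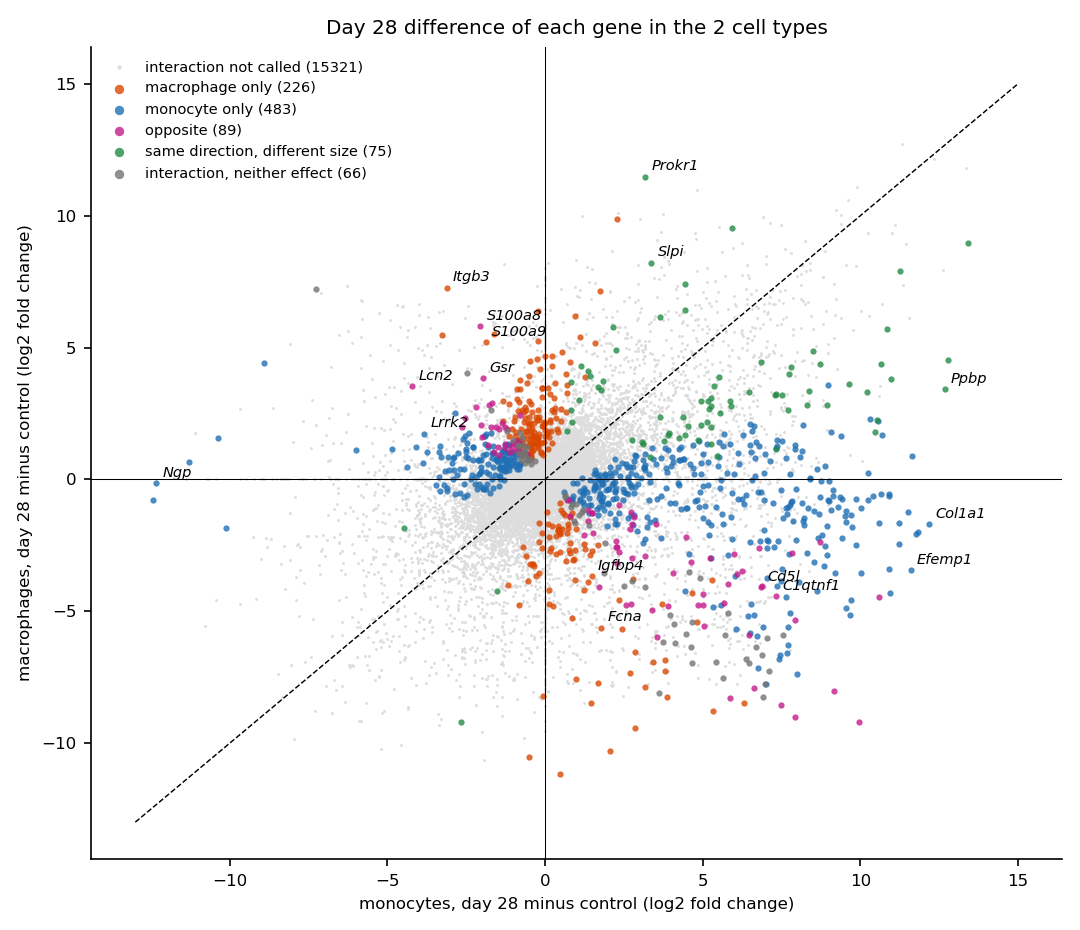
Each point is 1 of 16260 genes; the x axis is the day 28 minus control log2 fold change in monocytes and the y axis the same in macrophages, with colours for the 5 kinds of called interaction and grey for the rest. The dashed line marks equal effects; the 340 monocyte-only genes that rose spread to the right near the horizontal axis, and the 56 genes that fell in macrophages and rose in monocytes lie at the lower right.

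Resident macrophage genes were higher in control macrophages than in control monocytes, and fewer of them differed at day 28. Of a list of 32 resident macrophage genes, all tested, 22 had a negative interaction. The list's median interaction was -5.48 against -0.07 over all genes tested. In macrophages 19 of the 32 fell, and in monocytes 16 rose and 1 fell. Over all genes tested 3.55% had a negative interaction, 3.99% fell in macrophages, and 11.7% rose and 6.52% fell in monocytes. In the controls 29 of the 32 were higher in macrophages, against 7.61% of all genes tested. At day 28 still 15 were, against 1.49%, with a median difference of 1.91. The 15 were 17 without macrophage replicate C at day 28, 7 and 9 without replicates A and B, and 10, 10 and 7 without monocyte replicates A, B and C at day 28.

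The 3 genes of C1q, the recognition unit of the classical complement pathway, showed this in monocytes. They lie side by side on the minus strand of chromosome 4 in GRCm38, C1qa at chr4:136895917-136898803, C1qb at chr4:136880129-136886187 and C1qc at chr4:136889804-136893065. C1qa was 1.37, 1.27 and 1.09 CPM in control monocytes and 528, 320 and 220 at day 28, a rise of 8.15 ± 0.42 (edgeR adjusted p = 3.4e-11). In macrophages it was 2122 and 2614 CPM in controls and 1255, 1416 and 1120 at day 28, which was not called (-0.91 ± 0.33, adjusted p = 0.089). Every day 28 monocyte library lay above every control monocyte library and below every macrophage library. C1qa had an interaction of -9.06 ± 0.51 (adjusted p = 9.9e-10), C1qb of -8.13 ± 0.53 and C1qc of -8.74 ± 0.55. At day 28 C1qa was still higher in macrophages by 1.83 ± 0.31 (adjusted p = 0.0047).

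Because C1qb and C1qc moved together, their promoter windows (250 bases before to 50 after the annotated start, RefSeq, GRCm38.p6, chr4:136886151-136886450 and chr4:136892865-136893164, minus strand) are shown. Capitals mark TGCTGA, the half-site of MAF factors, and GAGGAA, the core of the PU.1 motif, searched on both strands; the motifs do not overlap each other in these windows.
C1qb: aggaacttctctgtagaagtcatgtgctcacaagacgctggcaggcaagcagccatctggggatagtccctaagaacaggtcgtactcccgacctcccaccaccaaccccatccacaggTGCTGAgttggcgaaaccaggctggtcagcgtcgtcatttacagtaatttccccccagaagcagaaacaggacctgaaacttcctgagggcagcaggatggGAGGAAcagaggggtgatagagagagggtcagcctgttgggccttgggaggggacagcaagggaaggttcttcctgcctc
C1qc: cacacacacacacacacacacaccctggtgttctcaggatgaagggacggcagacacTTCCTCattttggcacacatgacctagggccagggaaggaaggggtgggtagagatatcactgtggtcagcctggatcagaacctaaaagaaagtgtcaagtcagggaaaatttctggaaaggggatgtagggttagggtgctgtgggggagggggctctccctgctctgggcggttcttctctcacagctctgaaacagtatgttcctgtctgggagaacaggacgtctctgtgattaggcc
The C1qb window held 1 of each motif and the C1qc window 0 of the first and 1 of the second. Among the 11047 tested genes with a window in the table, 15.7% held TGCTGA and 27.6% held GAGGAA, so that these letters are common in windows of this length.

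Other genes of the same group fell in macrophages while they rose in monocytes. Stab1, the scavenger receptor stabilin-1, was 928 and 599 CPM in control macrophages and 95.9, 172 and 106 at day 28. In monocytes it went from 1.57, 1.17 and 0.189 to 116, 79.5 and 128 CPM. The 2 cell types overlapped at day 28 (0.21 ± 0.41, adjusted p = 0.84) and lay far apart in controls (9.60 ± 0.61). Stab1 had an interaction of -9.39 ± 0.70 (adjusted p = 3.7e-08), with effects of -2.61 in macrophages and 6.78 in monocytes. Folr2, a folate receptor of resident macrophages, fell from 1714 and 2910 CPM to 390, 250 and 230 in macrophages and rose from 0.959, 0.425 and 0.260 to 23.8, 29.8 and 9.93 in monocytes. Here the cell types stayed apart at day 28 (3.78 ± 0.52, adjusted p = 7.1e-04). Mrc1, the mannose receptor CD206, had the same pattern with an interaction of -5.19 ± 0.67, and so had Gas6, a bridging ligand for dying cells, at -8.71 ± 1.25. The chemokine gene Ccl8 fell from 1136 and 2775 CPM to 148, 109 and 270 in macrophages and rose from at most 0.372 CPM to 5.73, 13.8 and 47.0 in monocytes.

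The largest negative interactions of this opposite kind belonged to genes nearly silent in control monocytes. C1qtnf1, which encodes a secreted C1q and TNF related protein, had 0 counts in all 3 control monocyte libraries and 0.225, 1.46 and 0.836 CPM at day 28. That is at least 36.5-fold higher, against a floor of 3 counts over the group. In macrophages it fell from 70.5 and 56.8 CPM to 5.06, 1.02 and 2.82 (-4.42 ± 1.04, adjusted p = 0.0094). Its monocyte level at day 28 was thus a small part of the control macrophage level. Scamp5, a secretory carrier membrane protein gene, rose at least 95.1-fold in monocytes from 0 counts and fell by 2.37 in macrophages. A4galt, a glycolipid synthase gene, rose at least 26.5-fold from 0 counts and fell by 4.05. Cd5l, which encodes the macrophage-secreted protein AIM, fell from 78.0 and 85.0 CPM to 3.69, 4.73 and 5.88 in macrophages. In monocytes Cd5l had 3 counts over the controls and 3.09, 6.97 and 0.0984 CPM at day 28, a ratio of 143 (95% counting interval 48.3 to 700).

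The reverse opposite kind, up in macrophages and down in monocytes, included genes of granulocytes and of blood monocytes. S100a8, a subunit of the antimicrobial protein calprotectin, lies on chromosome 3 (chr3:90668978-90670035, plus strand). It was 0.522 and 2.64 CPM in control macrophages and 40.4, 86.8 and 152 at day 28, and went from 595, 804 and 411 to 124, 158 and 153 CPM in monocytes. The control groups lay far apart (-8.50 ± 1.09, macrophages minus monocytes), and at day 28 macrophage replicate C lay within the monocyte range while A and B lay below it. Without replicate C the day 28 difference was -1.17 (adjusted p = 0.32). The interaction of S100a8 was 7.86 ± 1.16 (adjusted p = 2.3e-04), with 5.8 ± 0.96 in macrophages and -2.06 ± 0.67 in monocytes (adjusted p = 0.036). Lcn2, the iron-binding lipocalin of granules, rose from 0.131 and 0.180 CPM to 0.568, 2.4 and 2.72 in macrophages and fell from 134, 170 and 94.6 to 4.05, 6.97 and 10.4 in monocytes. Gsr, glutathione reductase, rose from 1.18 and 6.17 CPM to 17.3, 30.7 and 116 in macrophages and fell from 337, 668 and 753 to 144, 184 and 118 in monocytes. Every day 28 macrophage library of Gsr stayed below every monocyte library, and without replicate C the day 28 difference was called (-2.62, adjusted p = 0.0066). L1cam, a cell adhesion gene, had an interaction of 4.93 ± 0.95. Spn (CD43) and Treml4, genes of nonclassical blood monocytes, had interactions of 4.87 ± 0.65 and 4.08 ± 0.56.

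The summed level of neutrophil markers, a list that includes S100a8, S100a9, Ngp and Ltf, was lower at day 28 in monocytes. In macrophages the control and day 28 ranges of this sum overlapped. Over 20 neutrophil genes in the table the summed level was 4091 to 5598 CPM in control monocytes, 475 to 1085 in monocytes at day 28, 288.7 to 308.4 in control macrophages and 195 to 468 in macrophages at day 28. Of the 20 tested, 7 had a positive and 1 a negative interaction, against 2.23% and 3.55% of all genes tested. In macrophages 4 of the 20 rose and 0 fell, against 6.57% and 3.99% of all genes tested. In monocytes 2 rose and 9 fell, against 11.7% and 6.52%. In 1 to 2 of the 20 genes a control monocyte library had 0 counts, against 4 to 9 in macrophages at day 28. The part of neutrophil RNA in these results was not tested, and in bulk libraries fewer cells of a type and less RNA per cell cannot be told apart.

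Of the 143 genes that fell in monocytes only, most were also expressed in macrophages, and a few were nearly silent there. Macrophage means were at least 1 CPM in both conditions for 134 genes and at least 5 CPM for 115. Ngp, a neutrophil granule protein gene, was 1152, 1394 and 780 CPM in control monocytes and 0.674, 0 and 0 at day 28, and at most 0.588 CPM in any macrophage library. Ltf, lactotransferrin, went from 447, 343 and 348 CPM to 0.618, 0.244 and 0. Macrophages thus had no level of these genes from which to fall. Ldlrad3, a receptor gene of the LDL receptor family, fell from 191, 176 and 250 CPM to 7.87, 22.3 and 5.95 in monocytes, and was 10.7 and 7.4 in control macrophages and 30.1, 25.9 and 7.4 at day 28 (interaction 5.32 ± 0.87). The transcription factor gene Rfx2 fell by 4.86 ± 0.78 in monocytes, with an interaction of 6.01 ± 1.13. The kinase gene Lrrk2 fell by 3.83 ± 0.82, and its interaction (5.56, adjusted p = 0.0075) was 5.0 with adjusted p = 0.0857 without control macrophage replicate B. The sort gene Cx3cr1 was 556, 437 and 512 CPM in control monocytes and 84.1, 189 and 97.8 at day 28, a fall of 2.02 ± 0.37, while macrophages held 136 and 57.6 in controls and 169, 226 and 90.1 at day 28. Its interaction was 2.76 ± 0.56 (adjusted p = 0.0039). Only 7 of the 143 genes that fell in monocytes only had a mean under 1 CPM in macrophages in both conditions.

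Genes that rose in monocytes only were the largest kind. Dab2, an endocytic adaptor gene, went from 0.676, 0.159 and 0.237 CPM to 255, 572 and 516 in monocytes, and was 1238 and 1021 in control and 768, 710 and 500 in day 28 macrophages. The efferocytosis receptor gene Mertk rose from at most 0.584 CPM to 32.1, 38.6 and 39.2 in monocytes and was 117 and 71.2 CPM, then 120, 109 and 50.1, in macrophages. Day 28 monocytes overlapped day 28 macrophages for Dab2 through macrophage replicate C alone, and without it the difference was 0.74 (adjusted p = 0.32). For Mertk the groups did not overlap, with a difference that was not called (1.34 ± 0.52, adjusted p = 0.18, and 1.66 with adjusted p = 0.06 without replicate C). Among chemokine genes, Ccl7 rose by 9.54 ± 0.77, Ccl12 by 8.20 ± 1.00 and Ccl24 by 7.76 ± 0.75 in monocytes, with macrophage values of -1.19, -1.47 and -0.96 that were not called. Over a list of 32 inflammatory cytokine genes, 26 rose in monocytes and 12 in macrophages, and 14 had a negative interaction. Over all genes tested these shares were 11.7%, 6.57% and 3.55%. The chemokine receptor gene Ccr1 rose from 29.5, 20.1 and 33.2 CPM to 542, 904 and 1207 in monocytes. In macrophages it was 321 and 298 CPM in controls and 476, 397 and 946 at day 28, which was not called (0.97 ± 0.36, adjusted p = 0.098).

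Genes of antigen presentation showed smaller interactions of the same sign. Among 16 MHC class II presentation genes 9 rose in monocytes, against 11.7% of all genes tested. In macrophages 2 rose and 2 fell, against 6.57% and 3.99%, and 4 of the 16 had a negative interaction. The 4 were 2 without control macrophage replicate B, where H2-Aa had adjusted p = 0.204 and H2-Ab1 0.13, and also 2 without macrophage replicate A at day 28, control monocyte replicate B or C, or monocyte replicate A at day 28. H2-Aa further had adjusted p = 0.0566 with the replicate block and 0.0844 with the 11 libraries alone. H2-Eb1 rose from 519, 416 and 282 CPM to 3941, 1403 and 1608 in monocytes, which brought it to the 1965, 1810 and 2627 of macrophages at day 28 (interaction -3.00 ± 0.62, adjusted p = 0.0048). The costimulatory gene Cd86 rose from 41.3, 68.7 and 37.9 CPM to 395, 409 and 523 in monocytes and was 152, 149 and 328 in macrophages at day 28. Lipid handling genes were mixed, with 4 positive and 3 negative interactions among 27, and lysosomal hydrolase and proton pump genes had 2 and 7 among 51. Over all genes tested the interaction was positive for 2.23% and negative for 3.55%. The cholesterol exporter gene Abca1 rose by 5.86 ± 0.53 in monocytes and had 1.34 ± 0.50 in macrophages (adjusted p = 0.097). The lysosomal protease gene Lgmn rose by 3.28 ± 0.27 in monocytes and had 0.19 ± 0.28 in macrophages.

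Matrix genes that fibroblasts express also rose in monocytes only. Col1a1, type I collagen, had 0 counts in the 3 control monocyte libraries and 12.2, 45 and 16.9 CPM at day 28, at least 1060-fold higher. In macrophages it was 22.6 and 20.3 CPM in controls and 2.89, 15.2 and 1.93 at day 28, which was not called (-1.69 ± 1.02, adjusted p = 0.33). Dcn, the proteoglycan decorin, had 3 counts over the control monocytes and 120, 161 and 26.9 CPM at day 28, a ratio of 4275 (95% counting interval 1462 to 20740). Col1a2 and the matrix genes Sparc and Mfap5 had the same pattern, and Efemp1, a fibulin gene, was at least 692-fold higher in monocytes while macrophages stayed at or under 1.11 CPM. Of 20 fibroblast genes, 17 rose in monocytes, 1 fell in macrophages and 13 had a negative interaction. Over all genes tested these shares were 11.7%, 3.99% and 3.55%. The summed level of the 20 was 3.22 to 10.8 CPM in control monocytes and 331 to 772 in monocytes at day 28. In macrophages it was 303 to 364 CPM in controls and 38.5 to 144 at day 28. Between 11 and 14 of the 20 were at 0 in a control monocyte library and at most 2 in a monocyte library at day 28. The part of fibroblast RNA in the interaction was not tested.

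**Figure D2:**
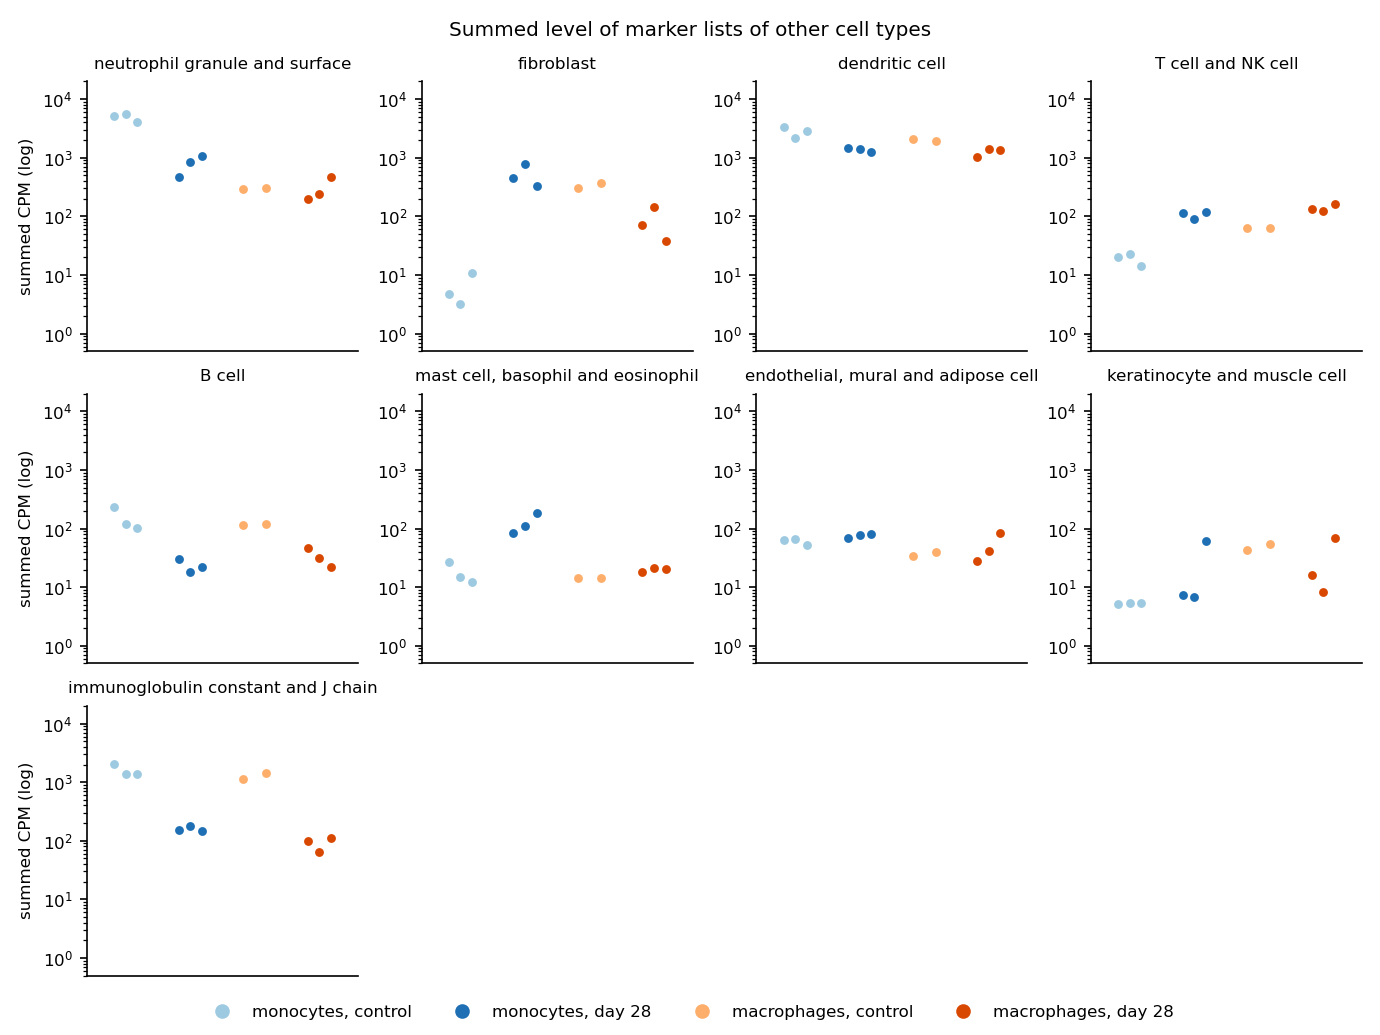
Summed CPM (log axis), relative to the library total without TMM factors, of 9 marker lists of other cell types, 1 point per library, for the 4 groups. Control monocytes stand highest on the neutrophil list (4091 to 5598 CPM) and lowest on the fibroblast list (3.22 to 10.8 CPM), and both control groups stand above day 28 on immunoglobulin genes.

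The summed immunoglobulin constant and J chain level was 1354 to 2074 CPM in control monocytes and 1113 to 1431 in control macrophages, against 147 to 181 and 64.0 to 114 at day 28, so that both control groups stood above both day 28 groups. Of 10 tested B cell genes 1 had a called interaction, against 5.77% of all genes tested. Mast cell, basophil and eosinophil genes summed to 83.4 to 187 CPM in monocytes at day 28 and 12.4 to 27.3 in control monocytes. In macrophages this sum was 14.3 CPM in controls and 18.1 to 21.1 at day 28. Of 10 tested genes of this list, 0 had a called interaction. The part of RNA from such cells in the results was not tested.

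Of the 140 genes that rose in macrophages only, 106 were lower in control macrophages than in control monocytes and had no called difference at day 28. Hp, haptoglobin, rose from 8.23 and 10.5 CPM to 81.6, 170 and 172 in macrophages (3.92 ± 0.48) and was 580, 1084 and 1031 in control and 456, 860 and 589 in day 28 monocytes. S100a9, the partner of S100a8, rose from 0.327 and 2.31 CPM to 13.8, 49.0 and 92.9 in macrophages, and its monocyte value (-1.88 ± 0.66, adjusted p = 0.054) missed the threshold. The nuclear receptor gene Nr4a1 rose from 52.9 and 24.2 CPM to 544, 561 and 335 in macrophages, into the range of the monocytes. Ndrg1, a hypoxia-responsive gene, rose from 4.70 and 5.66 CPM to 89.6, 116 and 135 in macrophages, while monocytes held 78.2, 75.5 and 98.3 in controls and 60.8, 159 and 212 at day 28. Fibronectin, Fn1, rose from 303 and 84.3 CPM to 5403, 6538 and 1934 in macrophages and was spread between 568 and 2768 CPM in monocytes of both conditions. At day 28 replicates A and B of macrophages had more Fn1 than any monocyte library, and the group difference was not called (1.85 ± 0.57, adjusted p = 0.088) except without replicate C (2.24, adjusted p = 0.022). Among the same 140 genes, 135 had monocyte means of at least 1 CPM in both conditions, and 53 of these had a 95% interval of the monocyte effect within 1 log2 unit of 0.

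Genes of sterol synthesis leaned to a positive interaction. Of 22 tested, 7 had a positive interaction, 5 fell in monocytes and 2 rose in macrophages. Over all genes tested these shares were 2.23%, 6.52% and 6.57%. The 7 were 1 without control macrophage replicate B, and 4 without control macrophage replicate A, macrophage replicate A at day 28 or monocyte replicate A at day 28. Fdft1, squalene synthase, fell from 14.4, 17.3 and 19.6 CPM to 4.16, 4.10 and 7.43 in monocytes and rose from 4.25 and 3.48 to 22.8, 12.7 and 10.4 in macrophages (interaction 3.69 ± 0.67, adjusted p = 0.0016). Msmo1, a demethylation step enzyme, had 2.14 ± 0.45, which was 1.97 with adjusted p = 0.0591 without control macrophage replicate B. The oxidase gene Sqle had 4.18 ± 0.94, which was 3.90 with adjusted p = 0.0919 without that library.

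The genes that fell in macrophages only included 8 of the resident macrophage list. Fcna, a ficolin of the lectin complement pathway, fell from 1112 and 1799 CPM to 44.0, 22.2 and 22.2 in macrophages. In monocytes it was 1.66, 1.01 and 2.01 CPM in controls and 3.54, 9.02 and 3.59 at day 28, which was not called (1.78 ± 0.71, adjusted p = 0.084). The lectin gene Clec10a fell from 876 and 1186 CPM to 71.3, 49.0 and 127 in macrophages and stayed between 27.4 and 46.5 in all monocyte libraries (monocyte effect -0.28 ± 0.30). Rcn3, a calcium-binding protein of the endoplasmic reticulum, had an effect of -4.19 ± 0.58 in macrophages, and Igfbp4, a binding protein of insulin-like growth factors, of -3.66 ± 0.65. Of the 86 genes that fell in macrophages only, 21 had monocyte means under 1 CPM in both conditions. For such genes the monocytes had little level from which to fall. With a limit of 5 CPM they were 36.

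Some genes named by size alone were weakly supported. Itgb3, the integrin beta 3 chain, had 0 counts in control macrophages and 1.56, 0.530 and 0.379 CPM at day 28, and its interaction (adjusted p = 0.011) had adjusted p = 0.0598 without control macrophage replicate A and 0.114 without replicate B. Tmem26, a membrane protein gene, had adjusted p = 0.037, and 0.179 and 0.127 without the same libraries. Smim10l2a (adjusted p = 0.025) and the kinase gene Dmpk (0.032) were 10.5 and 13.6 CPM and 21.9 and 22.8 CPM in control macrophages and at most 1.24 CPM in the other groups. Their interactions had adjusted p = 0.0804 and 0.0965 without control macrophage replicate B. Each also hung on 1 monocyte library at day 28: Smim10l2a had -6.24 (adjusted p = 1) without replicate B, against -11.6 with it, and Dmpk -5.41 (adjusted p = 1) without replicate A, against -10.2.

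Where both cell types changed in the same direction, 72 of the 75 genes rose. On the log2 scale the rise was larger in monocytes for most of the 72. Over all 75 genes, with the 3 that fell, the interaction was negative for 55 and positive for 20. C3ar1, the receptor of the complement fragment C3a, went from 4.75, 2.73 and 7.10 CPM to 793, 796 and 762 in monocytes and from 780 and 543 to 1423, 1428 and 1548 in macrophages. The lysosomal protease gene Ctsl rose by 5.25 ± 0.35 in monocytes and 1.97 ± 0.35 in macrophages. The endotoxin co-receptor gene Cd14 rose from 220, 164 and 162 CPM to 5700, 7777 and 7549 in monocytes and from 383 and 501 to 4437, 3557 and 3153 in macrophages. The immediate early gene Ier3 rose by 8.32 ± 0.38 in monocytes and 2.81 ± 0.34 in macrophages. Timp1, an inhibitor of matrix proteases, rose from at most 0.153 CPM to 98.3, 121 and 287 in monocytes and from 1.83 and 1.68 to 53.0, 77.2 and 146 in macrophages. Ppbp, a platelet chemokine gene, rose at least 1491-fold in monocytes from 0 counts and by 3.43 ± 0.76 in macrophages, to 16.4, 25.3 and 62.6 and to 20.5, 22.3 and 66.6 CPM.

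A larger rise in macrophages on the log2 scale was the rarer pattern. Slc7a11, the cystine importer, rose from 0.196 and 0.330 CPM to 185, 209 and 231 in macrophages (9.52 ± 0.66) and from 5.32, 5.31 and 3.69 to 237, 295 and 343 in monocytes (5.93 ± 0.45). Slpi, a secreted protease inhibitor, rose by 8.22 ± 0.87 and 3.37 ± 0.56, coagulation factor X, F10, by 4.91 ± 0.32 and 2.25 ± 0.24, the urokinase receptor gene Plaur by 3.74 ± 0.27 and 1.85 ± 0.21, and the oxidised LDL receptor gene Olr1 by 6.15 ± 0.46 and 3.64 ± 0.33. With limma voom the interactions of Slc7a11 and Slpi had adjusted p = 0.108 and 0.177. Prokr1, a prokineticin receptor gene with 0 counts in control macrophages, rose at least 226-fold there. Its interaction (adjusted p = 0.018) had adjusted p = 0.157 without control macrophage replicate B. The 3 genes that fell in both were Vnn3, Oas2 and the transcription factor gene Irf4, with interactions of -6.53, -2.69 and 2.62. They had adjusted p = 0.033, 0.038 and 0.031, and without control macrophage replicate A 0.0621, 0.305 and 0.126.

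For genes that rose in both cell types the sign of the interaction depended on the scale. Log2 values compare ratios, and a ratio is large where the control level is near 0. On mean CPM without a log, the sign of the interaction was reversed for 44 of the 939 genes (4.69%), among them 31 of the 75 same-sign genes (41.3%) and none of the opposite or macrophage-only kinds. Olfml3, an olfactomedin gene, had an interaction of -8.65 on the log2 scale and 30.3 CPM on the linear one. Its mean went from 0.0152 to 29.7 CPM in monocytes and from 24.0 to 83.9 in macrophages. For the collagenase gene Mmp13, chosen after its values were seen, the same values were -7.18 and 50.1 CPM. By the CPM given above, the sign was also reversed on mean CPM for C3ar1 and Slc7a11.

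Genes that changed in both cell types with no called interaction included those of oxygen and sugar metabolism. Of 23 hypoxia response genes 16 rose in macrophages and 17 in monocytes, 12 were of the kind called in both, and 3 had a called interaction. Of 24 glycolysis genes 16 and 17 rose, 15 were called in both and 1 had an interaction. Over all genes tested 6.57% rose in macrophages and 11.7% in monocytes, 4.23% were called in both without an interaction and 5.77% had an interaction. Ldha, lactate dehydrogenase, chosen after its values were seen, went from 345, 417 and 338 CPM to 2252, 3318 and 3304 in monocytes and from 510 and 570 to 2654, 2728 and 2729 in macrophages (interaction -0.69 ± 0.33, adjusted p = 0.27). Nos2, inducible nitric oxide synthase, had 1 count over all control libraries of both cell types. It was 8.04, 53.4 and 40.1 CPM in monocytes and 9.70, 9.78 and 88.0 in macrophages at day 28. Cdh1, E-cadherin, had 0 counts in all 5 controls and was at least 1200-fold higher in monocytes and at least 366-fold higher in macrophages. Flrt3, an adhesion gene, reached 84.6, 130 and 206 CPM and 114, 74.9 and 83.8 from at most 0.0300. Rgs16, a regulator of G protein signalling, was at least 218-fold and 173-fold higher. With controls at or near 0, an interaction on the log2 scale has little precision for such genes. For Flrt3 it was -1.56 ± 2.26. Among the genes that fell in both, Cd209d, a lectin gene, went from 150.5 and 232 CPM to 17.2, 5.58 and 15.4 in macrophages and from 10.3, 6.08 and 1.35 to 0.899, 0.146 and 0.0492 in monocytes. S1pr5, a receptor that guides blood monocytes, Serpinb10 and Dyrk3 had effects of -8.06, -5.59 and -5.20 in monocytes and 0 counts in macrophages at day 28.

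An interaction that was not called does not show equal effects. Of the 687 genes called in both cell types, 88 had a 95% interval of the interaction within 1 log2 unit of 0, and the median width of that interval was 2.47. No member of 75 oxidative phosphorylation genes, 76 cytosolic ribosomal protein genes or 9 mitochondrially encoded genes had a called interaction in edgeR, DESeq2 or limma voom. At an unadjusted edgeR p under 0.05 there were 0, 0 and 2. Their median interactions were -0.49, 0.07 and 1.02. Oxidative phosphorylation genes rose in monocytes for 16 of 75 and in macrophages for 3, against 11.7% and 6.57% of all genes tested. In monocytes DESeq2 called 28 of them and limma voom 35. With single libraries left out, the 16 ranged from 3 without control monocyte replicate C to 34 without replicate B. The mitochondrially encoded genes rose in macrophages for 6 of 9 and in monocytes for 0 of 9 (1 at an unadjusted p under 0.05, 1 called by DESeq2 and 0 by limma voom), while the difference between these effects was not called. Without control macrophage replicate B the 6 were 0, without replicate A 3 and without macrophage replicate A at day 28 4.

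**Figure D3:**
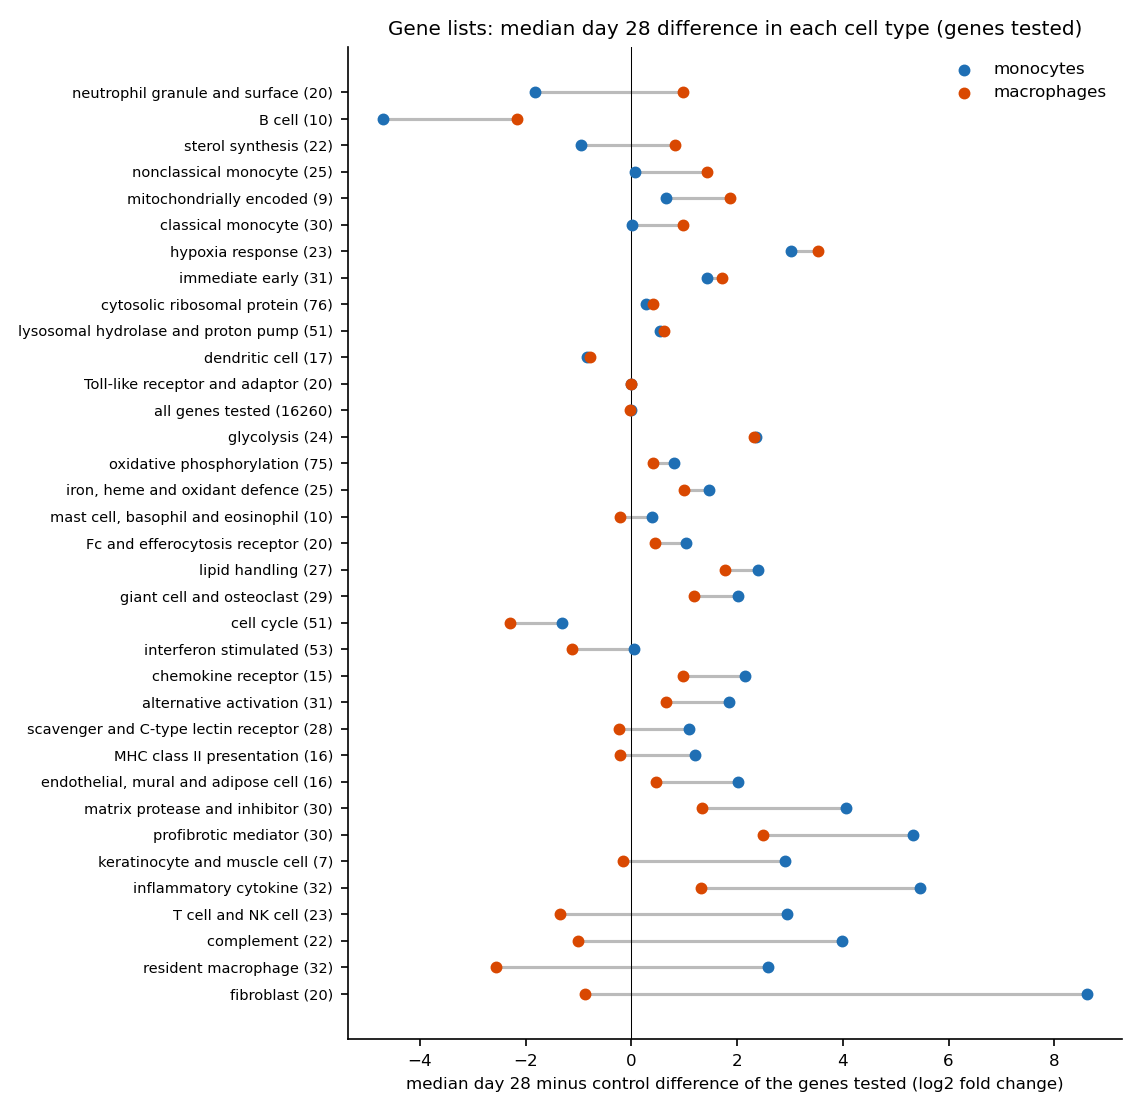
Median day 28 minus control log2 fold change over the tested genes of each list, in monocytes and in macrophages, sorted by the gap between them (number tested in parentheses). Resident macrophage genes lie at -2.56 in macrophages and 2.59 in monocytes, and hypoxia genes at 3.54 and 3.01.

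**Figure D4:**
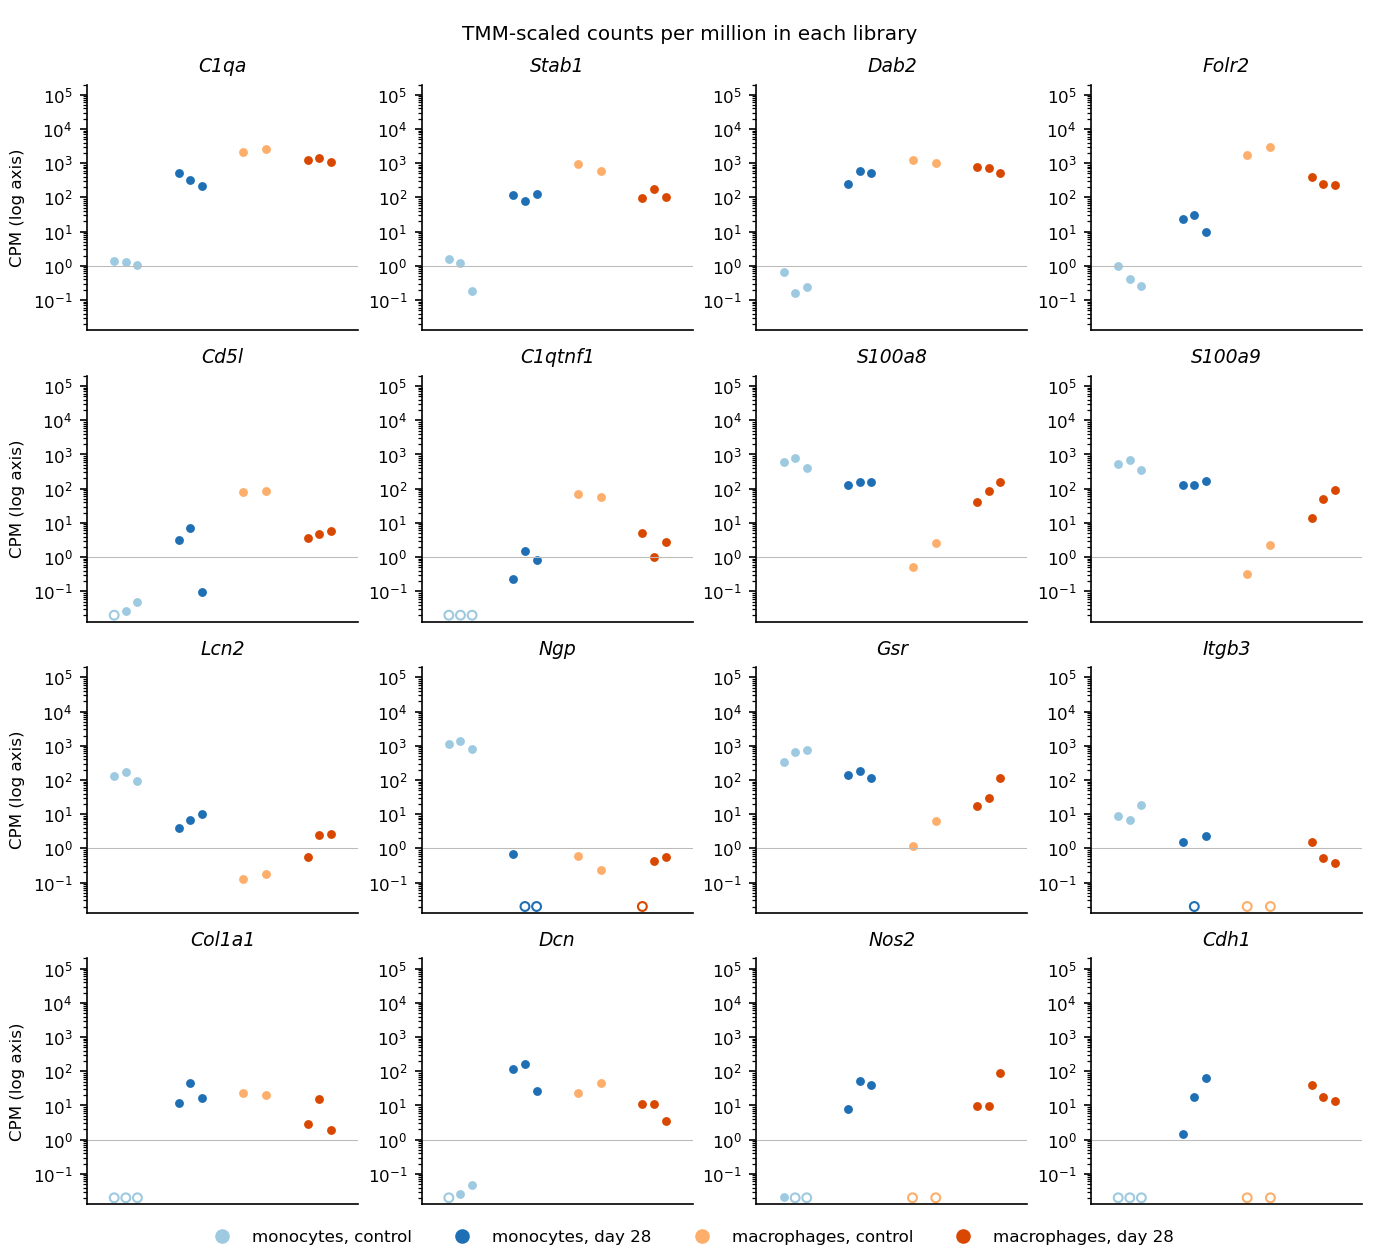
TMM-scaled CPM (log axis) of 16 genes in each of the 11 libraries; open circles at the foot of a panel mark 0 counts and the grey line 1 CPM. C1qa, Stab1, Dab2 and Folr2 are near or under 1 CPM only in control monocytes, and S100a8, S100a9 and Gsr are lowest in control macrophages.

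The control level took a large part in these differences. The interaction is also the day 28 difference between the cell types minus the control difference, so that interaction and control difference share the control libraries and a negative relation between them is built in. Control macrophages were higher than control monocytes for 1238 genes (7.61%) and lower for 796 (4.9%). At day 28 macrophages were higher for 242 (1.49%) and lower for 167 (1.03%). Of the 939 genes with an interaction, 707 (75.3%) differed between the cell types in the controls and had no called difference at day 28. Another 44 (4.69%) differed at day 28 only, 50 (5.32%) in both with the same sign, 25 (2.66%) in both with opposite sign and 113 (12.0%) in neither. Over the 707 genes the median absolute difference was 3.18 in controls and 0.60 at day 28. This set was picked by those calls, so a larger control value is built in. In the same way, the 44 genes that differed at day 28 only had medians of 0.65 in controls and 1.76 at day 28. Control macrophages were higher for 430 of the 707 and lower for 277. The control difference was the larger of the 2 for 821 of the 939 genes (87.4%), and for 9168 of all 16260 genes tested (56.4%).

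The 4 most common patterns held 550 of the 939 interactions. The first, of 274 genes, was higher in control macrophages, rose in monocytes only and had no called difference at day 28, as Dab2 and Ccl7 did. The second, of 109 genes, was higher in control monocytes and fell in monocytes only, as Ngp and Ldlrad3 did. The third, of 106 genes, was lower in control macrophages and rose in macrophages only, as S100a9 and Nr4a1 did. The fourth, of 61 genes, was higher in control macrophages and fell in macrophages only, as Fcna and Rcn3 did. In a further 39 genes macrophages fell and monocytes rose from a lower control level, with no called difference at day 28, like Stab1, and 31 had the reverse directions, like S100a8 and Gsr. A difference that was not called does not show equal levels, and without macrophage replicate C at day 28 it was called for Gsr, Hp (-2.32, adjusted p = 0.0039) and Fcna (2.63, adjusted p = 0.037). The 6 patterns held 240, 118, 89, 62, 39 and 27 genes without that library, 222, 78, 60, 31, 23 and 11 without control macrophage replicate A, and 183, 55, 37, 23, 14 and 13 without replicate B. Without control monocyte replicate C the first held 174. L1cam was higher in control monocytes (-2.73 ± 0.73) and at day 28 had 2.20 ± 0.61 (adjusted p = 0.057), or 2.55 (adjusted p = 0.018) without macrophage replicate C.

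How far the cell types approached each other at day 28 rested on 1 library. Over the 8536 genes with a group mean of at least 10 CPM, 2562 (30%) differed more than 2-fold between the cell types in controls and 1624 (19%) at day 28. Without macrophage replicate C at day 28, the library that correlated most with monocytes, 2519 differed more than 2-fold at day 28 and 2557 in controls. The count of called differences at day 28 went from 409 to 1323 without it, and to 69, 128, 213 and 111 without macrophage replicate A or B or monocyte replicate A or C at day 28. The interaction was less moved, with 1060 genes called without replicate C, of which 814 were shared with the 939. Among the called genes, 652 differed in controls only and 178 at day 28 only without it. The control difference was the larger one for 798 of the 939 genes in that fit. Without control macrophage replicate B, 366 genes differed in controls only and 24 at day 28 only. The 44 genes that differed at day 28 only were also 28 without control macrophage replicate A, 9 and 16 without macrophage replicate A and B at day 28, and 29 and 14 without monocyte replicate A and C at day 28. Called control differences numbered 2034, and 1170 and 1111 without control macrophage replicates A and B.

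**Figure D5:**
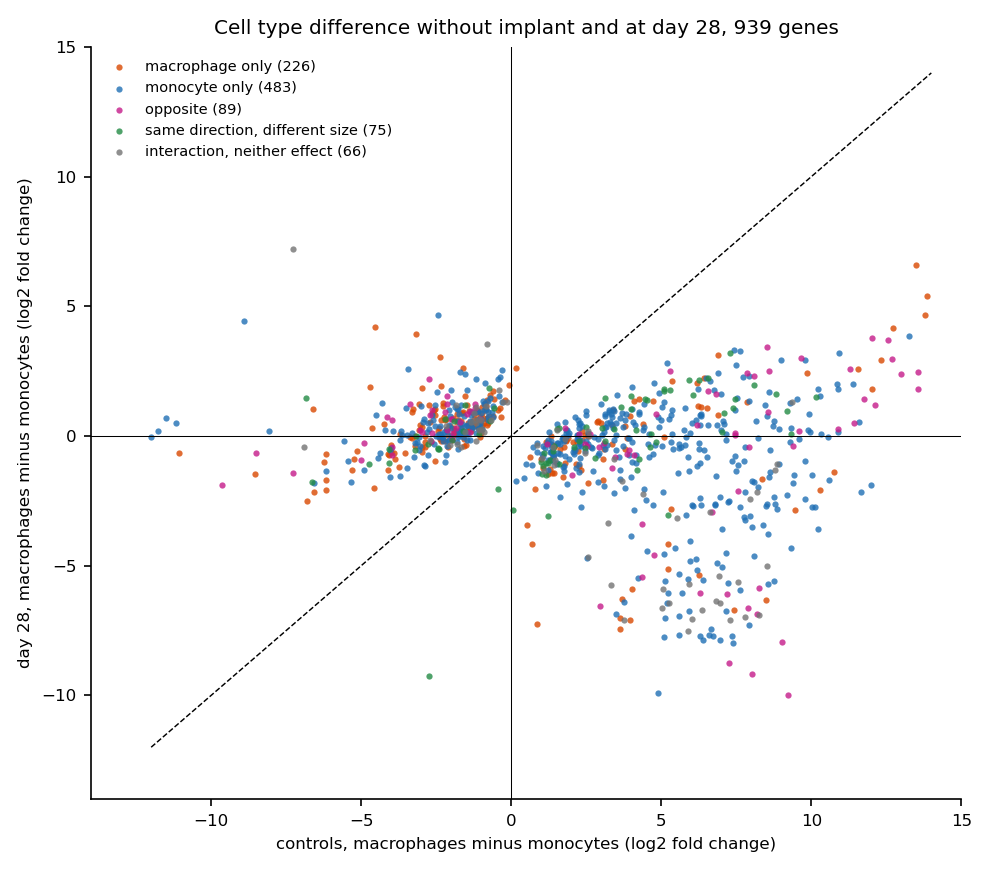
The 939 genes with a called interaction; the x axis is the log2 difference of macrophages minus monocytes in controls and the y axis the same at day 28, with the dashed line at equal differences. Of these, 821 lie nearer to the horizontal axis than to the vertical one, and a set of 83 genes lies at the lower right.

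Called genes were low less often than the genes tested. In 204 of the 939 (21.7%) the mean was under 10 CPM in all 4 groups, against 47.5% of the genes tested, and this held for 136 of the 483 monocyte-only genes (28.2%) and 1 of the 75 same-sign genes. A set of 83 genes, marked off after the values were seen, had a control difference over 2 and a day 28 difference under -4, so that macrophages were the higher type in controls and the lower at day 28. The median over these genes of the highest group mean was 1.62 CPM, with a range of 0.313 to 18.3, and 3 were on the fibroblast list. Of the 340 genes that rose in monocytes only, 52 had macrophage means under 1 CPM in both conditions and 115 under 5 CPM. A total of 248 had macrophage means of at least 1 CPM in both, and for 30 of these the 95% interval of the macrophage effect lay within 1 log2 unit of 0. For the others of these 248 the interval reached further, so that an effect of that size in macrophages was not excluded.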

How the data were processed

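Single reads of 75 bases came from SMART-Seq v4 and Nextera XT libraries, per the labels' protocols. Per the submitters' processing notes, bcl2fastq, STAR 2.4.1d and featureCounts of Subread 1.5.1 were used with GRCm38. No source used here names the annotation, the strand setting or the counting of reads with several matches. The authors deposited counts, whole numbers for 47729 gene entries. GENCODE M21 gave symbols to 47310 entries and the coordinates. No pair of libraries was identical.

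An edgeR 4.0.16 quasi-likelihood model with robust dispersion (R 4.3.3, TMM, filterByExpr, prior count 0.125) was fitted to all 23 libraries with 8 groups, without covariates. The interaction and its 4 component differences were tested over 16260 genes, with Benjamini-Hochberg adjustment and a threshold of 0.05. A standard error is |log2 fold change| divided by the root of F. Where a group had 0 counts a bound was set from 3 counts in that group, and for 1 to 3 counts a ratio is given with a 95% exact interval; both cover counting error only. Before scaling, 3 counts correspond to 0.0909 to 0.275 CPM.

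Named genes had a highest group mean of at least 10 CPM. For a response in a single cell type they were, per direction and with no overlap between its control and day 28 libraries, the 3 largest interactions where the other type had at least 1 CPM in both groups and the 2 largest where it was under 1 CPM. Further genes were the 4 largest opposite interactions of each sign, the 2 largest same-sign ones per direction and cell type, and the 4 per direction called in both without interaction that had the largest smaller change. Up to 4 members with the smallest interaction p were taken per list, from 34 lists, with genes of the sort and cell identity. Predicted, mitochondrially encoded and sex-linked genes and antigen receptor segments were left out. Members and lists were chosen with earlier results of these data known. Alternatives were DESeq2 1.42.0, limma 3.58.1 voom, RLE factors, no filter, the 11 libraries alone, a replicate block, thinned counts, a prior count of 2, each library left out and, added after seeing the data, a covariate for the transcript length trend. The edgeR test was tested on simulated data.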

Additional observations from a re-analysis of the deposited data

Results flagged for a closer look

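The difference between day 28 and control libraries depended on the cell type, by the interaction test itself, for 939 genes. Of these, 89 had called effects of opposite sign. The largest opposite interactions, higher in macrophages and lower in monocytes at day 28, were those of S100a8 (7.86), Lcn2 (7.74), Gsr (5.83) and L1cam (4.93, all log2). Those lower in macrophages and higher in monocytes were C1qtnf1 (-11.76), Scamp5 (-11.09), Cd5l (-10.95) and A4galt (-10.92). For these 4 genes the control monocytes had 0 to 3 counts, so that the fitted size depends on the prior count and is no bound. Each of the 8 genes kept its sign and its call in every alternative run, with edgeR, DESeq2 or limma voom. No group had the 4 libraries that a check for a single distant library needs.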

How the results depend on the processing

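In every alternative, each of the 939 genes with a fitted value kept the sign of its interaction. Without control macrophage replicate B 476 of them stayed called, and with DESeq2 922. Over genes called in both cell types without interaction, the 95% interval of the interaction had a median width of 2.47 log2 units, so that smaller differences can pass unseen with 2 control macrophage libraries. The labels do not say what the replicate letters mean, so whether same-letter libraries share an animal or batch is not known. Same-letter libraries correlated between -0.33 and 0.35 over 15 pairs, and 5 of 11 were closest to their own letter. With the replicate block 807 genes were called. RLE factors, the block, thinning and the length covariate left each count within 1.5 times. Without the low count filter the interaction was called for 1602 genes, 549 positive and 1053 negative. The macrophage-only, monocyte-only, opposite, same-sign and neither-effect kinds then held 342, 726, 191, 176 and 167, with 172 genes differing at day 28 only and 1285 day 28 differences. DESeq2 called 1471, 930 of them negative, with 385 macrophage-only, 157 opposite and 137 same-sign genes, 162 at day 28 only and 1199 day 28 differences. Limma voom called 1616 (588 positive, 1028 negative), with 555 macrophage-only and 191 opposite genes, 1078 called in both without interaction, 1098 differing in controls only, 172 at day 28 only, and 3100 macrophage, 3513 control and 1144 day 28 differences. The 11 libraries alone gave 575 (200 positive, 375 negative), kinds of 129, 304, 59, 45 and 38, 4 at day 28 only and 81 day 28 differences. Leaving out each library in turn gave 492 to 1060 interactions (162 to 418 positive, 330 to 642 negative), 83 to 305 macrophage-only, 313 to 505 monocyte-only, 36 to 106 opposite, 39 to 78 same-sign and 21 to 69 neither-effect genes. It gave 354 to 714 genes called in both without interaction, 366 to 744 differing in controls only and 9 to 178 at day 28 only. Macrophage differences then ranged from 689 to 1880, monocyte differences from 1932 to 3171, control differences from 1111 to 2240 and day 28 differences from 69 to 1323. The cause of these shifts was not tested. The sign turned for 8 named genes whose interaction was not called. With limma voom Cd209d had -0.094, Csf1r 0.23, Dyrk3 0.67, Nos2 -1.35 and Serpinb10 0.57; with thinned counts Cdh1 had 0.040 and Flrt3 0.99; with a prior count of 2 Cd209d had -0.12, Dyrk3 1.60 and Serpinb10 2.37. Without a library the interaction ranged over -0.86 to 0.12 for Ccr2, -0.53 to 1.94 for Cd209d, -0.43 to 0.32 for Csf1r, -2.86 to 0.71 for Flrt3, -0.79 to 1.36 for Cdh1 and -0.44 to 1.90 for Nos2.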
